A study of Mus musculus with 6 samples.

Results

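The testis-specific serine kinases (Tssk1 to Tssk6), their substrate Tsks and the calcium/calmodulin-dependent kinase Camk4 were examined by RNA-seq of whole testes from 21-day-old animals, 3 WT and 3 Trf2-/-. The 8 genes were chosen by symbol from the 26743 genes of the count table, and each symbol occurred there. In Trf2-/- testis Tssk1, Tssk2, Tssk3 and Tssk4 were each lower by more than 2-fold, and Tsks was lower by less than 2-fold. Tssk5, Tssk6 and Camk4 did not pass the test, and the fitted value of Camk4 was above 0 while those of all the others were below 0. Trf2, listed in the table as Tbpl1, is a relative of the TATA-binding protein. The labels restrict its inactivation to no cell type and name no further allele or treatment in either genotype. RNA was taken from the whole organ, at an age when the first wave of germ cells has reached the round spermatid stage, so that fewer cells of a type and less RNA per cell cannot be told apart.

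TSSKs are small serine/threonine kinases made almost only in the testis, mainly after meiosis, and they belong to the same branch of the kinome as the AMP-activated kinase. Tssk1 and Tssk2 are required for the shaping of the spermatid and for male fertility, and both bind and phosphorylate Tsks, a coiled-coil protein found at the spermatid centrioles. Tssk4 is known to act on the sperm flagellum and Tssk6 on the spermatid nucleus. Camk4 is activated by calmodulin and by an upstream kinase, and in neurons and T cells it phosphorylates the transcription factor CREB. In germ cells a promoter inside the Camk4 gene also yields calspermin, a protein without kinase activity, and counts per gene do not separate the 2 products.

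The bases just before the start sites of Tssk1 and Tssk2 are shown because this pair lies in tandem and because its WT and Trf2-/- values did not overlap. They were taken from RefSeq for GRCm38.p6, as the 120 bases before each start, 5′ to 3′ on the strand of the gene. Capitals mark matches to TGACNTCA, the palindrome of the cAMP response element with the base written N left free.
Tssk1, chr16:17894083-17894202, plus strand: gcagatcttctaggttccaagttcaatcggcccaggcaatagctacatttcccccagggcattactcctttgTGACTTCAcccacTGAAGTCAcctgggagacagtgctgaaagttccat
Tssk2, chr16:17898517-17898636, plus strand: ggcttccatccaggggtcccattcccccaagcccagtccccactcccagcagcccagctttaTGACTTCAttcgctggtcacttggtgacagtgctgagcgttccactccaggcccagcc

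In Tssk1 the matches began at -48 on the plus strand and at -35 on the minus strand, counted from the start site, and in Tssk2 the match began at -58 on the plus strand. This form of the motif was chosen after the promoters had been read. It was searched on both strands from 250 bases before to 50 bases after the start, and it occurred in 8.83% of the 32851 RefSeq promoters of that length. Promoter sequences were matched for 6 of the 8 genes, all but Tssk5 and Camk4, and 2 of those 6 held it. The full palindrome TGACGTCA, found in 1.79% of all promoters, occurred in none of the 6. Its core TGACG, which the full palindrome also contains and which 20.8% of promoters hold, occurred in Tssk6 at -73. TATAAA, the core of the TATA box, was present in 13.6% of all promoters and in none of the 6. CCAAT occurred in 37.4% of all promoters and in 2 of the 6, Tssk3 at -41 and Tssk4 at -113. Tssk3, Tssk4 and Tsks, which were also lower without overlap between genotypes, held no match to TGACNTCA. Whether the motif goes with the decrease was not tested. The bases before Tssk6 are shown with the core alone in capitals.
Tssk6, chr8:69902064-69902183, plus strand: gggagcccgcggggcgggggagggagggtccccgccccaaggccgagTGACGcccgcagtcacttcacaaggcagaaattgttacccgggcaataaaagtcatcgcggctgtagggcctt

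On the build of the counts, NCBIM37 (mm9), Tssk1 (ENSMUSG00000041566) spans 17894296 to 17895744 and Tssk2 (ENSMUSG00000045521) spans 17898730 to 17900116 of chromosome 16. Both lie on the plus strand, each has 1 exon, and 2985 bases separate them. Their coding sequences were identical at 81.3% of 1050 aligned bases, against 59.7% to 66% for the other pairs of Tssk genes. Of the 50-base windows of Tssk1, 8.93% also occurred in Tssk2, and 9.34% of those of Tssk2 occurred in Tssk1, so that reads from these windows could not be placed on one gene. Tssk6 (ENSMUSG00000047654), a gene of 1 exon on chromosome 8 from 72426083 to 72427415, shares 28.1% of its exonic bases with Ndufa13 on the opposite strand. The strand setting of the counting is not given in the sources used here, so reads in that overlap may belong to either gene. For Tssk3 (chromosome 4, 129166258 to 129168266), Tssk4 (chromosome 14, 56269019 to 56271376), Tssk5 (chromosome 15, 76202388 to 76205368) and Tsks (chromosome 7, 52198592 to 52213405) 0 windows were shared. Camk4 (chromosome 18, 33098695 to 33355421) has 12 exons, and 0.677% of its windows recurred in other genes. All windows were searched as exact matches in annotated protein-coding transcripts only, so copies in other sequence were not covered.

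The reads counted on genes numbered between 21582123 and 29859347 in the WT mice and between 15187062 and 24530489 in the Trf2-/- mice, the lowest in Trf2-/- mouse 3. Levels are given as CPM, the counts of a gene scaled to the TMM-adjusted size of its library, and 3 counts, the most that a count of 0 allows for, amount to 0.105 to 0.144 CPM in WT and 0.119 to 0.190 CPM in Trf2-/- mice. This covers counting error only. Tbpl1 itself showed a log2 fold change of -2.27 (adjusted p = 1.18e-06, edgeR's quasi-likelihood test with Benjamini-Hochberg adjustment). Markers of the somatic testis cells were present in all mice. Among those of elongating spermatids, Prm2 and Prm3 had at most 3 counts in each mouse. Log2 fold changes below are Trf2-/- minus WT, so negative values are lower in the mutant.

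Levels per length were low for all 8 genes. In WT testis, Tssk1 stood highest at 5.08 ± 0.337 RPKM (CPM per kilobase of gene length; SD, n = 3), above 44.9% of the tested genes. Tsks followed at 1.99 ± 0.0963 RPKM, and Tssk1 was 2.55-fold above it with no overlap between mice. Tssk4 and Tssk3 came next, each with a mean of 1.06 RPKM, and their mice overlapped. Tsks was 1.87-fold above Tssk4 without overlap. Tssk2 had 0.578 ± 0.265 RPKM and overlapped both Tssk3 above it and Tssk6 (0.449 ± 0.0808 RPKM) below it. Tssk5 had 0.257 ± 0.0432 RPKM, without overlap with Tssk6, and overlapped the lowest gene, Camk4, at 0.213 ± 0.0545 RPKM. The place of Camk4 depends on its length of 12453 bases, against 1280 to 1875 bases for the others. In mean CPM, Camk4 (2.65) was below only Tssk1 (7.35) and Tsks (3.73) in WT, and the highest in Trf2-/- testis (3.49). Per length, the first 3 places in Trf2-/- testis were again held by Tssk1 (1.90 RPKM), Tsks (1.21 RPKM) and Tssk4 (0.491 RPKM), and Tssk2 was last at 0.0946 RPKM.

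**Figure D1:**
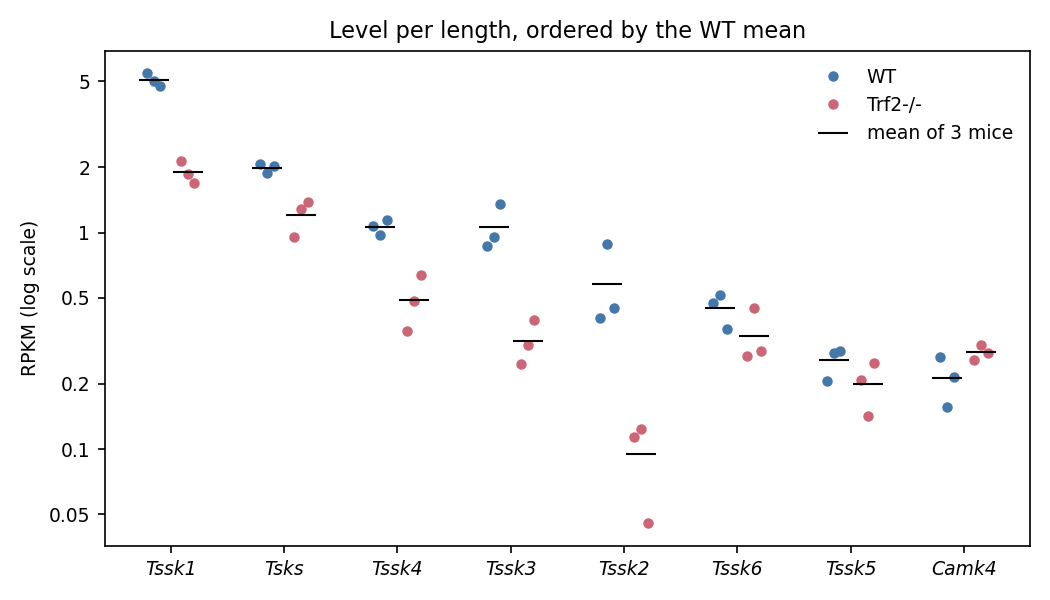
Level per length in RPKM (log axis) of each gene in each mouse, WT in blue and Trf2-/- in red, ordered by the WT mean, with black bars for the mean of 3 mice. Tssk1 is the highest in both genotypes (5.08 and 1.90 RPKM) and Tssk2 moves from place 5 to the last.

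Of the 7 genes that passed edgeR's filter on low counts, 4 were called lower by at least 2-fold, against a background of 4.30% of the 16924 tested genes, and 0 were higher by at least 2-fold, against 0.609%. Lower past the adjusted p of 0.05 were 5 of the 7 without a fold limit, against 20.2%. The filter asked for about 0.424 CPM in 3 mice. Tssk2, Tssk3 and Tssk6 passed it through the WT mice, since all 3 WT mice but at most 1 Trf2-/- mouse lay above that level, and Tssk5 did not pass. In a fit without the filter, in which all 8 genes were tested, the same 4 and the same 5 were called, against 3.35% and 13.0% of the 26743 genes. None was higher past the adjusted p in edgeR, with or without the filter, against backgrounds of 11.2% and 7.64%. With the filter, none of the 7 tested was higher at an unadjusted p under 0.05 in edgeR or in DESeq2's Wald test, and 1 was with library size as the only scaling. That scaling changed the split over all tested genes from 3423 lower and 1889 higher to 2691 lower and 4267 higher, and the calls on these genes were the same. The values of the genotypes did not overlap, and were lower in Trf2-/-, for Tssk1, Tssk2, Tssk3, Tssk4 and Tsks, where 26.8% of tested genes had such a pattern. None was higher without overlap, where 22.3% of tested genes were.

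**Figure D2:**
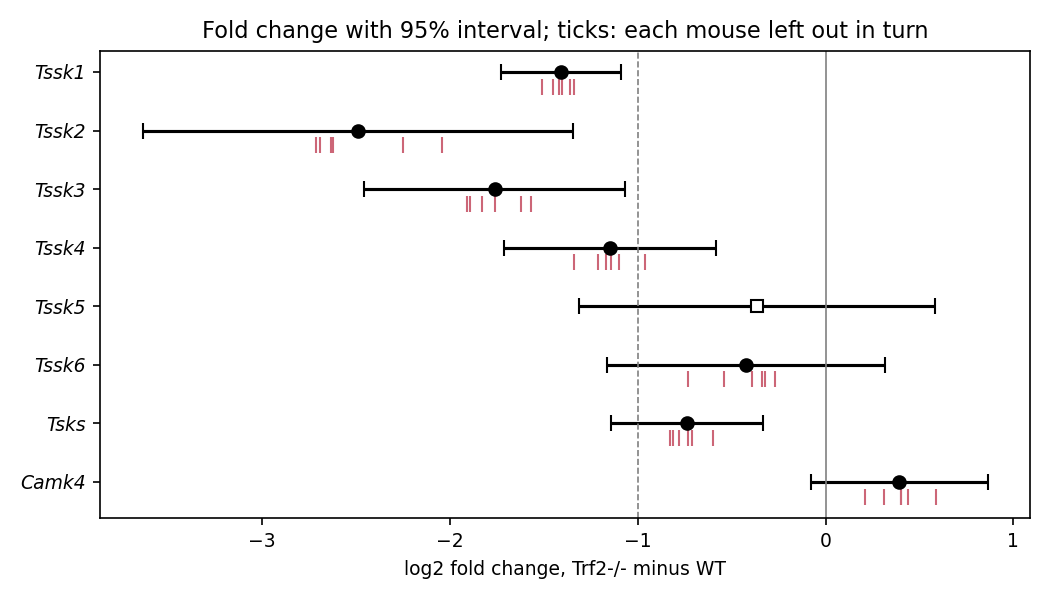
Log2 fold change of each gene (Trf2-/- minus WT) with its 95% interval; red ticks give the values when a mouse was left out, the dashed line marks a 2-fold decrease, and the open square for Tssk5 is from the fit without a filter. The intervals of Tssk1, Tssk2, Tssk3, Tssk4 and Tsks lie below 0, and those of Tssk5, Tssk6 and Camk4 include 0.

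Tssk1, one of the kinases that act in spermatid shaping, had 226, 190 and 144 counts in WT and 78, 63 and 39 counts in mutant mice. These correspond to 7.88, 7.28 and 6.91 CPM in WT and to 3.09, 2.70 and 2.47 CPM in Trf2-/- testis. All 3 mutant mice lay far below the lowest WT mouse. The mean fell from 7.35 ± 0.488 to 2.75 ± 0.318 CPM (SD, 3 mice per genotype), which left 37.4% of the WT mean. The log2 fold change was -1.41 (SE 0.14, adjusted p = 0.000425 by edgeR's quasi-likelihood test with Benjamini-Hochberg adjustment).

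Its tandem neighbour Tssk2 was a much weaker gene, with 16, 32 and 13 counts in WT and 4, 4 and 1 in Trf2-/- mice. In CPM the WT mice had 0.558, 1.23 and 0.624 and the Trf2-/- mice 0.159, 0.172 and 0.0632. WT mouse 2 stood well above the other WT mice, and no mutant value reached the WT range. The log2 fold change of -2.49 (SE 0.51, adjusted p = 0.00624, edgeR's quasi-likelihood test) had a wide interval: the gene was 5.61-fold lower, between 2.54 and 12.4. This fitted decrease was the largest of these genes in edgeR, but with DESeq2's shrunken fold changes it was -0.56, smaller in size than those of Tssk1 (-1.11), Tssk3 (-0.69) and Tssk4 (-0.58). The log2 ratio of Tssk1 to Tssk2 within a mouse was 3.25 ± 0.631 in WT and 4.22 ± 0.458 in Trf2-/- testis without overlap (SD, n = 3; exact two-sided permutation p = 0.1, the smallest possible with 3 against 3, adjusted p = 0.14 over 28 pairs).

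Tssk3 had 32, 32 and 36 counts in WT and 8, 9 and 8 in Trf2-/- mice, or 1.12, 1.23 and 1.73 CPM against 0.317, 0.386 and 0.506 CPM. Each mutant mouse had less than the lowest WT mouse. Its log2 fold change was -1.76 (SE 0.31, adjusted p = 0.00294, edgeR's quasi-likelihood test).

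Tssk4, the kinase linked to the flagellum, had 52, 43 and 40 counts in WT and 15, 19 and 17 in Trf2-/- mice, or 1.81, 1.65 and 1.92 CPM against 0.595, 0.815 and 1.07 CPM. The 3 WT mice lay close together and the mutants were more spread, without overlap. The log2 fold change of -1.15 (SE 0.25, adjusted p = 0.00844, edgeR's quasi-likelihood test) was near the 2-fold limit, and without Trf2-/- mouse 1, the lowest of the mutants, it was -0.96 (adjusted p = 0.0276), which is under 2-fold.

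Tssk5 was counted at the edge of detection, with 9, 11 and 9 reads in WT and 8, 5 and 6 in Trf2-/- mice. The levels of 0.314, 0.421 and 0.432 CPM in WT and 0.317, 0.214 and 0.379 CPM in the mutants overlapped. It was not tested with the filter, and without it the log2 fold change was -0.37 with a 95% interval from -1.31 to 0.58 (adjusted p = 0.614, edgeR's quasi-likelihood test). A 2-fold decrease lies within that interval, and a difference was not detectable at this depth.

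Tssk6, the kinase linked to the spermatid nucleus, had 18, 18 and 10 counts in WT and 9, 14 and 6 in Trf2-/- mice. The levels were 0.627, 0.689 and 0.480 CPM against 0.357, 0.600 and 0.379 CPM, and Trf2-/- mouse 2 fell inside the WT range. The log2 fold change of -0.42 had an interval from -1.16 to 0.32 (adjusted p = 0.346, edgeR's quasi-likelihood test), which again includes a 2-fold decrease. Ndufa13, a respiratory chain subunit gene that overlaps it on the opposite strand, was over 70 CPM in both genotypes, and its log2 fold change was -0.04 (adjusted p = 0.591, same test). The part of its reads in the Tssk6 counts was not tested.

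Added up in each mouse, the 6 Tssk genes gave 12.3, 12.5 and 12.1 CPM in WT and 4.84, 4.89 and 4.87 CPM in Trf2-/- testis. The mutant sums rest on 122, 114 and 77 counts, so their closeness is tighter than counting error and says nothing of the spread between mice. In WT testis Tssk1 supplied 59.8 ± 3.85% of the summed RPKM, Tssk4 and Tssk3 12.5% each, Tssk2 4.75, 10.2 and 5.39% in the 3 mice (mean 6.79%), Tssk6 5.29 ± 0.873% and Tssk5 3.03 ± 0.512% (SD, n = 3). In Trf2-/- testis the share of Tssk1 was 57.0 ± 6.55% and overlapped that in WT. The share of Tssk2 was lower at 2.83 ± 1.27%, and those of Tssk6 (10.0 ± 2.94%) and Tssk5 (6.02 ± 1.69%) were higher, each without overlap between genotypes. These are shares of a sum that fell. The mean RPKM in WT and Trf2-/- testis was 0.449 and 0.334 for Tssk6 and 0.257 and 0.201 for Tssk5, so neither rose. Both genes had at most 14 counts in each mutant mouse.

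**Figure D3:**
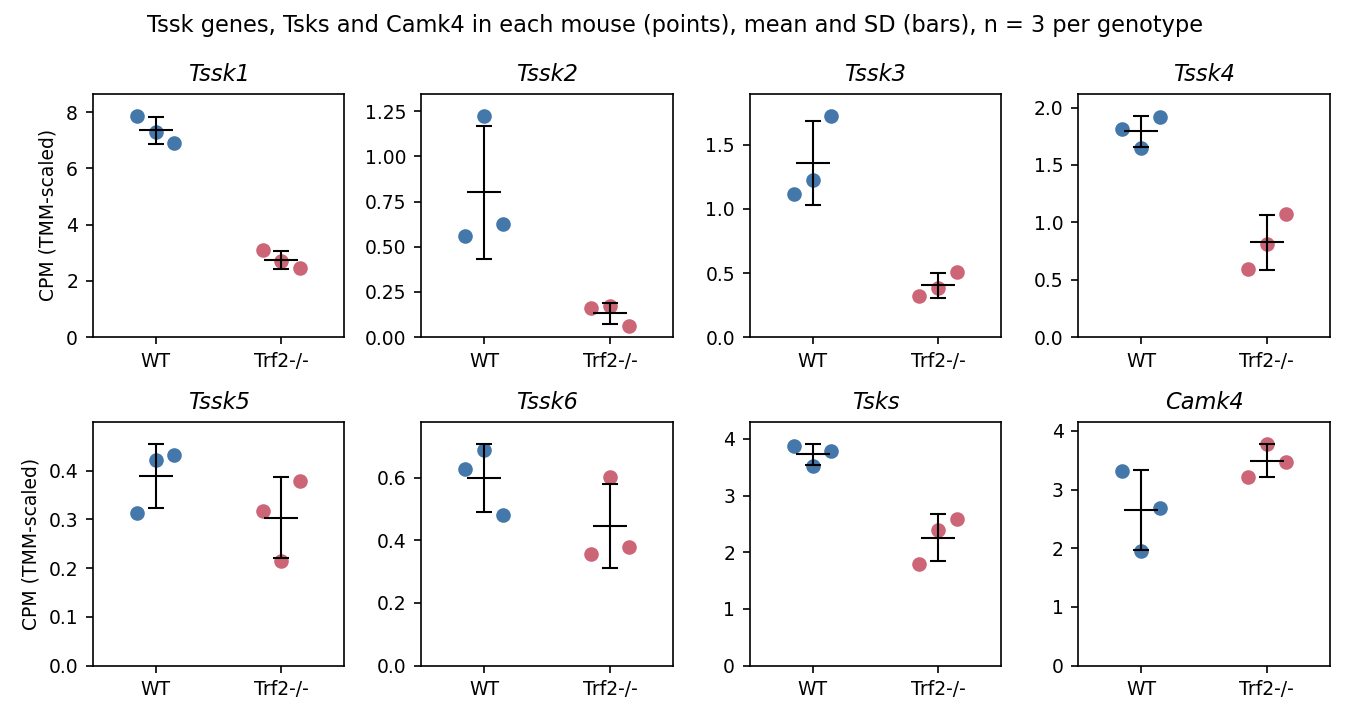
Level in CPM of each gene in each mouse (points, WT blue and Trf2-/- red), with the mean and SD of 3 mice (bars); each panel has its own axis from 0. The genotypes do not overlap for Tssk1, Tssk2, Tssk3, Tssk4 and Tsks, and they overlap for Tssk5, Tssk6 and Camk4.

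Tsks, the substrate of Tssk1 and Tssk2, had 111, 92 and 79 counts in WT and 45, 56 and 41 in Trf2-/- mice. In CPM these were 3.87, 3.52 and 3.79 against 1.79, 2.40 and 2.59. The mean fell from 3.73 ± 0.180 to 2.26 ± 0.421 CPM (SD, 3 mice per genotype), which left 60.6% of the WT mean, and the genotypes did not overlap. Its log2 fold change was -0.74 (SE 0.18, adjusted p = 0.0138, edgeR's quasi-likelihood test). Without WT mouse 1 the value was -0.71, and the adjusted p of 0.0540 no longer passed.

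Camk4 had 95, 51 and 56 counts in WT and 81, 88 and 55 in Trf2-/- mice, or 3.31, 1.95 and 2.69 CPM against 3.21, 3.77 and 3.48 CPM. WT mouse 1 lay inside the range of the mutants. The log2 fold change was 0.39 with an interval from -0.08 to 0.86 (adjusted p = 0.180, edgeR's quasi-likelihood test), an interval that leaves out a 2-fold decrease. Relative to Camk4 in the same mouse, Tssk1 went from a log2 ratio of 1.496 ± 0.343 in WT to -0.34 ± 0.249 in Trf2-/- testis, and Tsks from 0.52 ± 0.312 to -0.64 ± 0.211, each without overlap (SD, n = 3; exact two-sided permutation p = 0.1, adjusted p = 0.14 over 28 pairs). The 28 ratios reuse the same 8 genes, and none could pass the test with 3 mice each. Camk4 is also known from T cells and neurons, and markers of both were measured. Of the 4 T cell markers, Cd3e, Cd3g and Cd8a had at most 3 counts in every mouse, while Cd4 had 62, 40 and 35 counts in WT and 82, 28 and 29 in Trf2-/- mice. Of the 3 neuronal markers, Snap25 had at most 3 counts in every mouse and Gad1 at most 10, while Rbfox3 had 34, 26 and 25 counts in WT and 30, 22 and 13 in Trf2-/- mice. The summed T cell markers were 1.61 to 2.20 CPM in WT and 1.33 to 3.49 CPM in Trf2-/- mice, and the neuronal ones 1.46 to 1.54 and 0.948 to 1.37 CPM. Their part in the Camk4 counts was not tested.

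Most round spermatid markers were lower in Trf2-/- testis. Of the 8 markers, 7 were lower past the adjusted p, against 20.2% of all tested genes. Lower by at least 2-fold were 5 of them, against 4.30%. Their summed level was 338 to 359 CPM in WT and 135 to 217 CPM in Trf2-/- mice, lowest in Trf2-/- mouse 3. Spata16, with a log2 fold change of -0.95, supplied 80.3% of that sum in WT and 79.4% in Trf2-/- testis. Of the mutants, Trf2-/- mouse 3 had the lowest Tssk1 (2.47 CPM) and Tssk2 (0.0632 CPM). It had the highest Tssk3 (0.506 CPM), Tssk4 (1.07 CPM) and Tsks (2.59 CPM). The sum of the elongating spermatid markers was 4.99 to 6.59 CPM in WT and 0.316 to 0.901 CPM in Trf2-/- mice. For pachytene spermatocytes the sums were 4431 to 4730 and 2892 to 3593 CPM, for spermatogonia 174 to 182 and 190 to 245 CPM, and for Sertoli cells 1385 to 1524 and 1620 to 1800 CPM. Leydig cell markers (174 to 351 and 176 to 317 CPM) and peritubular markers (282 to 361 and 351 to 403 CPM) overlapped between the genotypes. Macrophage markers summed to 144 to 168 CPM in WT and 162 to 323 CPM in Trf2-/- mice, highest in Trf2-/- mouse 1. Of the 6, 3 (Csf1r, Emr1 and Lyz2) were higher past the adjusted p, against 11.2% of all tested genes. Lyz2 was higher by more than 2-fold (log2 fold change 1.36). The part of these shifts in the results on the kinases was not tested. Set against 1000 CPM of round spermatid markers in the same mouse, Tssk1 was 21.9, 21.5 and 19.7 CPM in WT and 15.7, 12.4 and 18.3 CPM in Trf2-/- mice, without overlap. The scale is set mainly by Spata16, and other markers of the list fell further than Tssk1 did: Izumo1 (-1.57) and Catsper3 (-1.89) in log2 fold change, while Acrv1 and Spaca3 had at most 3 counts in each mutant mouse. Tssk2, with only 4, 4 and 1 counts in the Trf2-/- mice, was also lower without overlap on this scale, while Tssk3, Tssk4 and Tsks overlapped. Camk4 was 9.22, 5.78 and 7.67 CPM in WT and 16.3, 17.4 and 25.7 CPM in Trf2-/- mice on the same scale. The marker sum that sets this scale was itself lower in every Trf2-/- mouse than in any WT mouse. A gene with equal CPM in all mice is therefore higher on it without overlap, and in plain CPM Camk4 overlapped. The share of all tested genes without overlap on this scale was not counted. Without Trf2-/- mouse 3, the same counts of 4 called genes and 5 lower genes were obtained.

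The genes next to the kinases were followed because several lie close by. Dgcr2, which starts 57 bases from Tssk1 and runs the other way, was at 65.7 ± 1.75 CPM in WT and 73.5 ± 3.59 CPM in Trf2-/- testis, a log2 fold change of 0.16 (adjusted p = 0.0527, edgeR's quasi-likelihood test). Dgcr14, 687 bases beyond Tssk2, showed a log2 fold change of -0.06 (adjusted p = 0.527, same test). The Tssk1 and Tssk2 genes thus fell between flanking genes that were not lower past the test. Beside Tssk3, the divergent gene 1700125D06Rik (167 bases away) showed a log2 fold change of -0.71 (adjusted p = 0.0875) and Bsdc1 on the other side (515 bases) fell slightly, by 0.17 on the log2 scale (adjusted p = 0.0459, edgeR's quasi-likelihood test for both). Fam203a, 554 bases from Tssk5, fell from 19.4 ± 1.31 to 11.1 ± 0.993 CPM (log2 fold change -0.80, adjusted p = 0.000728, same test), and Heatr7a on its other side had a value of -0.08 on the log2 scale and did not pass (adjusted p = 0.220). Cpt1c, a brain and testis member of the carnitine palmitoyltransferase family 1337 bases beyond Tsks, fell from 38.7 ± 1.31 to 25.7 ± 1.64 CPM (log2 fold change -0.59, adjusted p = 0.000557, same test), and Ap2a1 on its other side, at -0.09, did not pass (adjusted p = 0.136). The nearest genes of Tssk4, Tssk6 and Camk4 that were tested did not pass.

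Among partners and substrates of the TSSKs, 2 of 7 tested genes were lower past the adjusted p in edgeR. The other 5 did not pass. Over all tested genes, 20.2% were lower and 11.2% higher past that limit. The median log2 fold change was 0.00, against 0.04 over all tested genes. Odf2, an outer dense fibre protein of the sperm tail known as a partner of the TSSK-Tsks complex, fell from 1042 ± 14.7 to 627 ± 67.3 CPM (log2 fold change -0.73, adjusted p = 0.000425, edgeR's quasi-likelihood test). Spag16, an axoneme protein, fell from 157 ± 10.5 to 110 ± 13.0 CPM (log2 fold change -0.51, adjusted p = 0.00239, same test). The chaperones Hsp90aa1 (0.15) and Hsp90ab1 (0.11), the upstream kinase Pdpk1 (0.00), Creb1 (0.00) and H2afx (-0.03) did not pass on the log2 scale given, although both chaperones were higher past the adjusted p with library size as the only scaling. Tsacc was not analysed here.

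In the calcium/calmodulin kinase cascade, 4 of 13 tested genes were lower and 3 higher past the adjusted p (median log2 fold change -0.07). The shares over all tested genes were 20.2% lower and 11.2% higher. Camk1g, a calmodulin-dependent kinase related to Camk4, fell most, from 2.41 ± 0.709 to 0.916 ± 0.308 CPM (log2 fold change -1.34, adjusted p = 0.01003, edgeR's quasi-likelihood test). The calmodulin gene Calm3 (-0.32) and the kinase Camk2g (-0.33) also fell in log2 fold change, and Pnck (0.52), Camk1 (0.51) and Camk2d (0.37) rose. The upstream kinases Camkk1 (-0.09) and Camkk2 (0.18) did not pass. With library size as the only scaling, 3 were lower and 5 higher.

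CREM and the CREB coactivators act in the pathway of Camk4 and in haploid gene expression. Of 9 tested, 2 were lower and 1 higher (median log2 fold change 0.20), against 20.2% and 11.2% of all tested genes. Kif17, a motor protein known to move a CREM coactivator out of the nucleus, fell from 5.08 ± 0.344 to 3.27 ± 0.762 CPM (log2 fold change -0.66, adjusted p = 0.0226, edgeR's quasi-likelihood test). Crem fell from 120 ± 1.46 to 93.0 ± 11.0 CPM (log2 fold change -0.36, adjusted p = 0.00837, same test), and Crtc1 rose with a log2 fold change of 0.32. Fhl5, the CREM coactivator itself, was at 0.567 ± 0.236 CPM in WT and 0.532 ± 0.296 CPM in Trf2-/- testis. Library size as the only scaling gave 2 lower and 5 higher.

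The AMPK-related kinases, neighbours of the TSSKs in the kinome, had 5 lower and 3 higher of 17 tested, with a median log2 fold change of 0.11. Over all tested genes, 20.2% were lower and 11.2% higher. Hunk fell most, from 44.4 ± 0.668 to 23.9 ± 6.46 CPM (log2 fold change -0.88, adjusted p = 0.00358, edgeR's quasi-likelihood test), and none of the 17 reached 2-fold. Smaller decreases on the log2 scale were those of Prkaa1 (-0.29), Brsk1 (-0.29), Brsk2 (-0.28) and Mark2 (-0.21), and Melk (0.35), Mark4 (0.26) and Sik2 (0.25) rose. With library size as the only scaling 3 were lower and 6 higher, and Nim1 was not analysed here.

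Other kinases known from male germ cells had 7 lower and 1 higher of 11 tested (median log2 fold change -0.23). The shares over all tested genes were 20.2% and 11.2%. With library size as the only scaling, 4 of these kinases were lower and 1 higher. Tesk1, a kinase of spermatocytes and early spermatids that acts on cofilin, fell from 418 ± 24.5 to 262 ± 28.8 CPM (log2 fold change -0.67, adjusted p = 0.000678, edgeR's quasi-likelihood test). Stk33 fell from 336 ± 3.01 to 226 ± 31.7 CPM (log2 fold change -0.57, adjusted p = 0.00181, same test). Aurkc, the aurora kinase of meiosis, was the 1 gene of this list lower by at least 2-fold (log2 fold change -1.34). Stk36 (-0.27), Mak (-0.23), Csnk2a2 (-0.18) and Tex14 (-0.13) fell less on the log2 scale, and Tesk2 (0.26) rose. Set beside these lists, all 8 Tssk, Tsks and Camk4 genes had a median log2 fold change of -0.94 in the fit without a filter, against 0.04 over all 26743 genes in that fit. As the genes and lists were chosen with results of these mice known, these counts and medians are a description.

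**Figure D4:**
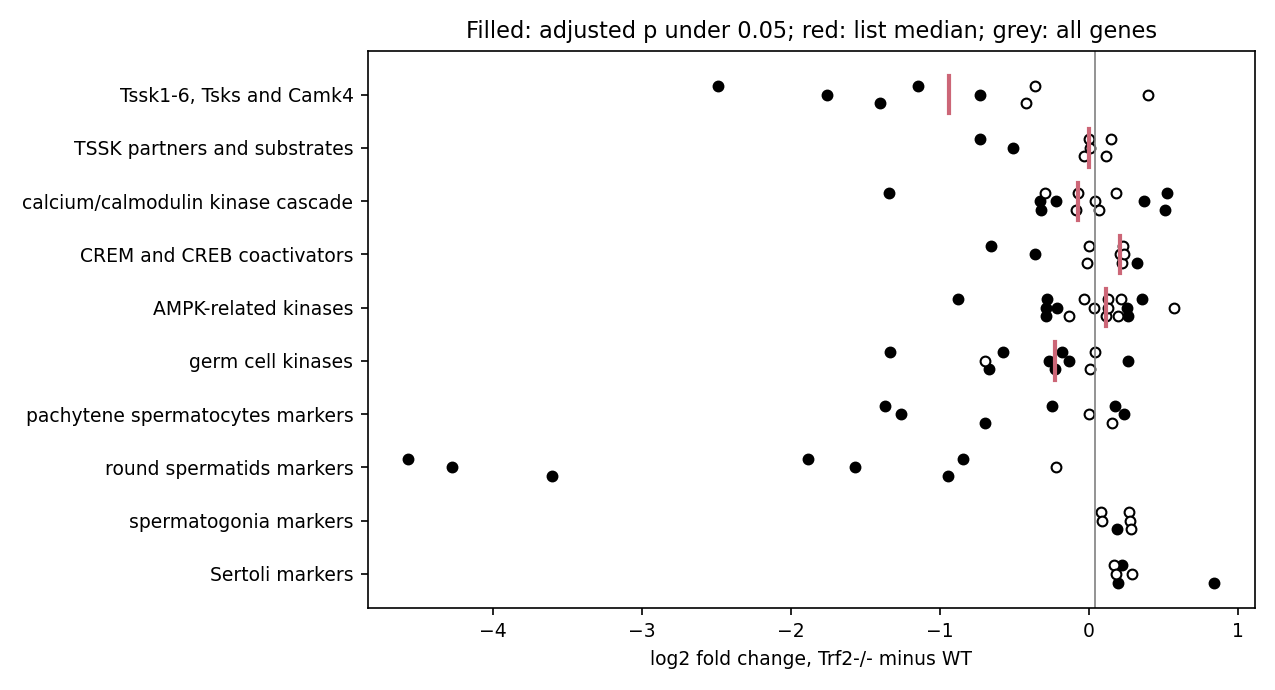
Log2 fold change (Trf2-/- minus WT) of all 8 Tssk, Tsks and Camk4 genes (fit without a filter) and of each tested gene in 5 related lists and 4 marker lists; filled points passed an adjusted p of 0.05, red bars are medians and the grey line is the median of all tested genes (0.04). The median of the 8 genes is -0.94, and those of the 5 related lists lie between -0.23 and 0.20.

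Likeness to the group was measured as Pearson's r over the 6 mice with the mean standardized log2 profile of the 7 tested genes. Each of the 7 is part of that mean, which raises its own r. Among them Tsks was highest at 0.972, Tssk6 had 0.743 and Camk4 was lowest at -0.547. The highest values among all other tested genes were those of Pi4ka (0.999), Cant1 (0.997), 4933400F03Rik (0.997), Fam135b (0.997) and Obfc1 (0.996). The points share their libraries and fall into the 2 genotypes, so that r reflects mostly the step between them. The size of that step differed widely, from a log2 fold change of -1.13 for 4933400F03Rik (adjusted p = 0.00235) to -0.11 for Obfc1 (adjusted p = 0.232, edgeR's quasi-likelihood test for both).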

How the data were processed

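Total RNA of whole testes (TruSeq Stranded Total RNA, Ribo-Zero Gold) was sequenced by the authors as single-end 50-base reads, 3 independent replicates per genotype. Per the labels' processing notes, the tools were CASAVA 1.8.2, TopHat2 2.0.10, Bowtie2 2.1.0, HTSeq 0.5.4p3 and DESeq2 1.0.19 on mm9; the strand setting and annotation release are not given in the sources used here. The authors deposited raw counts for 26743 genes, used here, beside 12 columns of normalized values, not used. Columns were matched to samples by genotype and replicate number. The gene members and lists were chosen with earlier results of these data known. Counts were tested with edgeR 4.0.16 (R 4.3.3; filterByExpr, TMM, glmQLFit, glmQLFTest, Benjamini-Hochberg over 16924 genes, which held 99.9% of reads); calls needed an adjusted p under 0.05 and, where stated, 2-fold. CPM and RPKM used TMM-scaled libraries and the gene lengths of the deposited table. Within-mouse ratios used a pseudocount and exact permutation tests. The named genes were the 8 members, Tbpl1, the fixed lists and markers, genomic neighbours, and the 5 most similar profiles. Alternatives were other scalings and filters, DESeq2 1.42.0, a replicate block and each mouse left out. The scripts were tested on simulated data. No replicate pair agreed within sampling noise. The chi-square over its degrees of freedom was 3.32 to 5.57 for the WT pairs. It was 6.25 for Trf2-/- mice 1 and 2, and 10.3 and 9.98 for the pairs with Trf2-/- mouse 3. Gene context came from GENCODE vM1 (NCBIM37) and promoters from RefSeq (GRCm38.p6). A gene of the lists is not reported here by name.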

Additional observations from a re-analysis of the deposited data

How the results depend on the processing

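Across the alternatives, each of the 7 tested genes kept the direction of its log2 fold change. The count of genes lower by at least 2-fold was 4, as with all mice, under DESeq2 size factors, library size alone, DESeq2's Wald test, no filter, an adjusted p of 0.01 and the replicate block. It was 1 (Tssk1) with DESeq2's shrunken fold changes, which pull low-count genes towards 0, and 2 (Tssk1 and Tssk4) when at least 10 counts were asked of every mouse, which leaves Tssk2, Tssk3 and Tssk6 untested. The count lower past the adjusted p was 5, and 3 when at least 10 counts were asked of every mouse. With single mice left out, these counts ranged from 3 to 4 and from 4 to 5, the count of higher genes stayed at 0, and the ratio of Tssk1 to Tsks per length in WT ranged from 2.50 to 2.65. Over all genes, the number lower by at least 2-fold was 727, against 198 with shrunken fold changes and 436 with at least 10 counts in every mouse. Tsks did not pass an adjusted p of 0.01. For the replicate numbers, deviations of each mouse from its genotype mean were correlated between genotypes. Same-numbered mice had correlations of -0.0589, -0.0830 and -0.0845, and the other pairs 0.0121 to 0.0542. Deviations from a mean of 3 mice depend on one another, so these values cannot settle whether same-numbered mice were matched. The labels name no pairing. The replicate block gave the same 4 and 5 genes. Depth limits Tssk2, Tssk5 and Tssk6, which had at most 32 counts per mouse. It also limits Tssk3, which had at most 9 counts in each mutant mouse.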
